A study of Mus musculus with 12 samples.

Results

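Glycolysis, lactate and hypoxia genes were followed in mouse hippocampal slices after chemical long-term potentiation (cLTP, here LTP). The group comprised 36 genes, chosen by name from 41091 gene IDs in each count table. They included 9 genes of glucose entry and the steps before aldolase, and 9 of lower glycolysis, here taken from aldolase on. The others were 2 of lactate dehydrogenase, 2 glucose transporters, 3 lactate transporters, 4 pyruvate dehydrogenase kinases and 7 genes of oxygen sensing or hypoxia response. The rule names genes and no measured values, although it was written with earlier results of these data known. All 36 passed the filter on low counts in every comparison.

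RNA-seq of total RNA was performed on acute hippocampal slices, trimmed of the dentate gyrus, from C57BL/6 wild type mice that were 2 to 3 months old. The methods of the study give male animals and a recovery period in interface chambers before treatment. LTP was induced with 50 uM forskolin, which activates adenylyl cyclase, for 5 min, and then for another 5 min with forskolin, 30 mM KCl and 10 mM calcium together. Control slices were kept for 10 min in vehicle, 0.2% DMSO. Collection followed after 1 hr or 3 hr. The 4 groups, named by time as 1 hr control and 1 hr LTP or, later, as 3 hr control and 3 hr LTP, had 3 libraries each. Within a time point, each animal supplied slices to both the LTP and the control library of its number. Each library pooled several slices of an animal, with all their cell types, so that fewer cells of a type and less RNA per cell cannot be told apart.

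Glycolysis splits glucose into pyruvate. Lactate dehydrogenase interconverts pyruvate and lactate, and lactate crosses membranes through monocarboxylate transporters. Pyruvate dehydrogenase kinases restrain the entry of pyruvate into mitochondrial oxidation. In brain, glucose enters mainly through GLUT1 in endothelial cells and glia and GLUT3 in neurons, and astrocytes are widely held to pass lactate to neurons. Many of these genes are known targets of hypoxia-inducible factor (HIF), whose alpha subunits are hydroxylated by the EGLN enzymes when oxygen is present and then degraded.

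Libraries held 37118382 to 50815001 counts, and the 36 genes took 0.827% to 1.045% of them. A floor of 3 counts equals 0.0584 to 0.0791 in counts-per-million units (CPM), below every mean reported here. 1 hr control replicate 2 was set aside by the study as an outlier of its clustering, which leaves 2 controls at 1 hr. In this library 28 of the 36 genes lay above both other 1 hr controls, 2 lay between them and 6 below, so values with it are given where a result rests on it. The study sequenced only samples in which quantitative PCR had shown Arc to rise, so that Arc is no independent check of induction. Levels of the activity-regulated genes Arc, Fos and Npas4 were examined all the same. Their log2 fold changes, LTP against control, were 1.99, 1.97 and 2.60 at 1 hr and 1.30, 1.48 and 1.43 at 3 hr.

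All steps of the pathway were detected. Per length of exon, in CPM divided by kilobases (RPKM, mean of 11 libraries), Aldoa was highest with 577, followed by Pkm with 242 and Aldoc with 229. Aldoa and Aldoc encode aldolases and Pkm pyruvate kinase. The lowest were Adm with 0.756, Egln3 with 0.616 and Slc16a3 with 0.346 RPKM. Adm encodes the vasodilator adrenomedullin, Egln3 an oxygen-sensing prolyl hydroxylase and Slc16a3 the lactate exporter MCT4. Exonic length was taken as the union of annotated exons, which lowers the RPKM of genes with long rare exons. The study states that its expression analysis was limited to reads in coding regions, and whether the deposited counts are limited in that way is not given. Protein-coding genes took 93.9% to 96% of the counts, and the noncoding RNA Malat1 held 457135 to 730018 counts per library, so that the tables as a whole are not limited to coding genes. If counts of coding genes leave out untranslated regions, the order of RPKM and the shares of isoforms given here would differ.

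Some enzyme steps are shared by isoforms that cannot be counted with equal certainty. Of all 100-base words in the longest coding transcript, 78.1% for Gapdh, 67.0% for Pgk1, 59.0% for Eno1, 39.7% for Pgam1 and 33.5% for Bnip3 also occur in transcripts of other annotated genes, mainly pseudogenes. How multiply aligned reads were counted is not given in the sources used here, so levels of these 5 genes are uncertain. Hk2, Slc2a3, Slc16a1, Slc16a3, Pfkfb3, Pfkfb4, Pdk4, Egln1 and Ddit4 shared no such word with another gene. Bnip3 and Pfkfb2 overlap other genes in 22.3% and 19.5% of their exonic bases, and whether counting used strand is not stated.

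The 5 promoters shown are of genes whose transcripts were higher at 3 hr than at 1 hr in control slices. They are all such genes with a 250-base window that ends upstream of both the RefSeq start and the GENCODE gene. Sequences are from RefSeq (GRCm38.p6) and run 5′ to 3′ on the strand of the gene. Capitals mark matches, on either strand, to the hypoxia-response cores ACGTG and GCGTG or to TGACG, a core of cAMP-response elements. Overlapping matches run together.
Hk2 (chr6:82774455-82774704, minus strand): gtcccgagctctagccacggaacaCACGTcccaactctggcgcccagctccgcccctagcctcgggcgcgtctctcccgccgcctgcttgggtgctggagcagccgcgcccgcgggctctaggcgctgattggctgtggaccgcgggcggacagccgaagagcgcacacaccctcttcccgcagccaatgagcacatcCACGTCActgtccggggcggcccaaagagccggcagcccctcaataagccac
Pgk1 (chrX:106186850-106187099, plus strand): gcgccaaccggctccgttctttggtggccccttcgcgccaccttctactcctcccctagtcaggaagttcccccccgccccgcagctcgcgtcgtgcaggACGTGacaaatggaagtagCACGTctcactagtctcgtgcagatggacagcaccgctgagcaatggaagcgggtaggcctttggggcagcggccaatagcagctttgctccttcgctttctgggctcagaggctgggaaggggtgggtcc
Pgam1 (chr19:41911621-41911870, plus strand): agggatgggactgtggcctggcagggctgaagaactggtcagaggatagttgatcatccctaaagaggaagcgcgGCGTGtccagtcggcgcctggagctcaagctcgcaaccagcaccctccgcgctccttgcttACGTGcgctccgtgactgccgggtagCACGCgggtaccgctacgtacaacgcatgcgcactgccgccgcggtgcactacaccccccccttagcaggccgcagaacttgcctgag
Eno1 (chr4:150236458-150236707, plus strand): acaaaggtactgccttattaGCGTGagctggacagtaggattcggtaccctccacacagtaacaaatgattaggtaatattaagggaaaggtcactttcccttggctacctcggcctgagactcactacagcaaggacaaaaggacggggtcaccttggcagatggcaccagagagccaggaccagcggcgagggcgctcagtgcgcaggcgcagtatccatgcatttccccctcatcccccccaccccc
Slc16a1 (chr3:104638414-104638663, plus strand): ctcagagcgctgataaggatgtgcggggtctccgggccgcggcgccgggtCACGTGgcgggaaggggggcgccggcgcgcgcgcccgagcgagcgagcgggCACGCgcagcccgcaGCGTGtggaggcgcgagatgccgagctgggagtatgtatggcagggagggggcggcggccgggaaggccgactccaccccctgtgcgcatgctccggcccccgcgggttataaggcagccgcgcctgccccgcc

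Promoter entries matched 34 of the 36 genes, with 51 windows between them, and Slc2a3 and Slc16a7 had no entry. At least 1 of the cores ACGTG and GCGTG lay in 41 of the 51 windows (80.4%) and in a window of 31 genes. Windows of neighbouring starts of Pfkm, Aldoa and Eno1 overlap, so that a match there counted in more than 1 window. Among all 32851 windows of the same length, 38.6% held either core, 16.6% held ACGTG, 28.2% held GCGTG and 17.8% held TGACG. The windows of the 34 genes were also richer in CG dinucleotides, with a median of 13 against 6 in all windows, and in G+C, with a median of 60.4% against 52.4%. Each core holds a CG, and its part in the difference was not tested. Of the 13 genes called higher with time in control slices, 12 had an entry, and all 12 held a core. Counted by gene, 31 of the 34 genes with an entry and 41.5% of all 27025 genes with a window held either core. Hk2 holds CACGTCA, in which the reverse complements of ACGTG and TGACG overlap. A match is a string of letters and was not examined as a binding site.

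The first comparison asked which of the genes differed between LTP and control slices at 1 hr. At this time 2 of the 36 genes were called, meaning an adjusted p under 0.1 together with a fold difference above 1.2, and both were transporters higher in LTP slices. Of all 17736 genes tested, 0.778% were called higher and 0.0113% lower. The median log2 fold change was -0.05 over the 36 genes and -0.001 over all genes. Libraries of the fitted groups did not overlap for 11 of the 36 genes, against 22.6% of all genes.

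Slc16a1 (chromosome 3, 104638668 to 104658462) encodes MCT1, the main lactate transporter of endothelial cells and glia. It had 104, 108 and 107 CPM in the LTP libraries and 87.1 and 82.8 CPM in the fitted controls. All LTP libraries lay above the controls, and the library set aside was lower still with 78.3 CPM. The log2 fold change was 0.34 (SE 0.07, adjusted p = 0.0389). Markers of oligodendrocytes, which express MCT1, also had differences above 0 at 1 hr. By edgeR 0 of 5 were called and 3 had an unadjusted p under 0.05, with a median log2 fold change of 0.22 and summed levels of 6806 to 8122 CPM with LTP and 5603 to 7042 CPM without. Endothelial markers, of cells that also express MCT1, summed to 68.7 to 76.0 CPM with LTP and 83.5 to 84.3 CPM without, a lower level without overlap, with a median log2 fold change of -0.20, 0 of 5 called and 2 with an unadjusted p under 0.05. Astrocyte markers overlapped, at 4755 to 5122 CPM and 4805 to 5013 CPM. The part of these cells in the Slc16a1 difference was not tested. With animals compared one by one, the log2 ratio of LTP over control was 0.26, 0.46 and 0.37 in animals 1, 2 and 3.

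Slc2a3 (chromosome 6, 122727809 to 122801640) encodes GLUT3, the high-affinity neuronal glucose transporter. Its LTP libraries held 179, 177 and 176 CPM and its controls 150 and 143 CPM. These groups did not overlap, while the control set aside had 167 CPM, between them. The log2 fold change was 0.29 (SE 0.07, adjusted p = 0.0810). Log2 ratios by animal were 0.26, 0.09 and 0.30.

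Both 1 hr calls depended on the libraries and the model fitted. Neither gene was called without 1 hr control replicate 1, without 1 hr control replicate 3 or without 1 hr LTP replicate 1. With all 6 libraries Slc2a3 was no longer called (log2 fold change 0.22, adjusted p = 0.384), and with all 6 and the animal as a block Slc16a1 was not called either (0.37, adjusted p = 0.132). In the model of the 4 groups, with the same 5 libraries at 1 hr, neither was called (0.33 for Slc16a1 and 0.28 for Slc2a3).

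**Figure D1:**
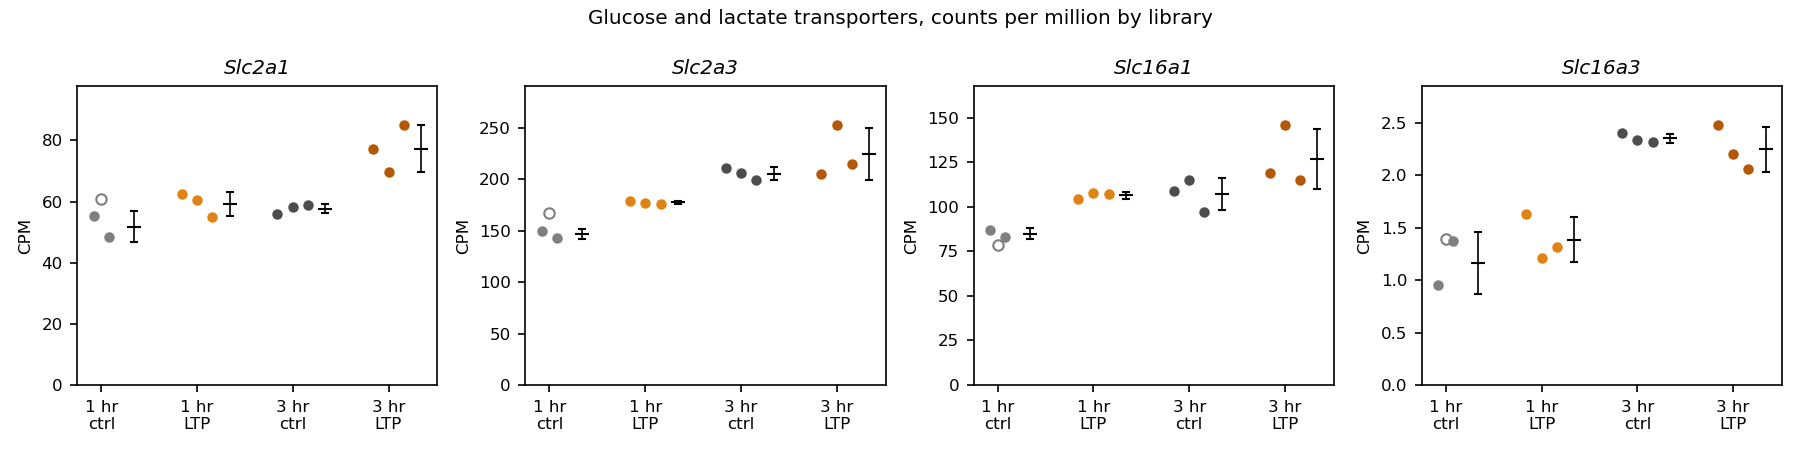
CPM (y axis, from 0) of 4 glucose and lactate transporters in each library of the 4 groups (x axis). Filled points are fitted libraries, the open point is 1 hr control replicate 2, which was set aside, and bars give mean and SD of the fitted libraries. Slc2a1 in the 3 hr LTP libraries, at 69.8 to 85.0 CPM, lies above the 3 hr controls, at 55.9 to 58.9 CPM.

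GLUT1, encoded by Slc2a1, had 62.3, 60.3 and 54.8 CPM with LTP and 55.4 and 48.2 CPM without at 1 hr. These ranges overlapped (log2 fold change 0.20, SE 0.09, adjusted p = 0.695). Hk2, the inducible hexokinase, had 13.0, 14.0 and 13.2 CPM with LTP and 11.26 and 11.01 CPM in the fitted controls. The groups did not overlap, but the difference of 0.28 (SE 0.11, adjusted p = 0.593) was not called, and the control set aside had 15.5 CPM, above all LTP libraries. Ddit4, a stress-induced inhibitor of mTORC1 signalling, differed by 0.20 (SE 0.10, adjusted p = 0.753).

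The enzymes from aldolase to lactate all leaned to the other side at 1 hr, without a call. Each of the 9 lower-glycolysis genes and both lactate dehydrogenase genes had a log2 fold change below 0, from -0.22 for Gapdh to -0.03 for Pgk1, with a median of -0.10. In edgeR 0 of these 11 were called, and 1, Ldhb, had an unadjusted p under 0.05. With the animal as a block, 8 of 11 were below 0 and the median was -0.05. The same count of 8 and a median of -0.05 were found without 1 hr LTP replicate 2, whose log2 ratio to its own control was below 0 for all 11 genes (median -0.37). With all 6 libraries the count was 11 and the median -0.15, and without 1 hr LTP replicate 3 they were likewise 11 and -0.15, with Eno1 called lower (log2 fold change -0.28, adjusted p = 0.0793). In animal 3 only 4 of 11 ratios were below 0 (median 0.02). Animal 2 is the animal whose control library was set aside.

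Of the remaining genes at 1 hr, Pdk1 had the largest difference among the kinases, with -0.17 (SE 0.07, adjusted p = 0.655). The oxygen sensor Egln1 and the HIF subunit gene Hif1a differed by -0.08 and -0.03. Adm, at about 1 CPM, had the widest interval of the 36 genes, from -0.28 to 1.30 (95%).

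At 3 hr, 2 of the 36 genes were again called, but they were other genes and moved in opposite directions. Slc2a1 rose and Eno1 fell. Of all 17508 genes tested, 5.07% were called higher and 1.53% lower. The median log2 fold change was -0.07 over the 36 genes and -0.002 over all genes. Groups did not overlap for 17 of the 36 genes, against 27% of all genes. The time points share no library.

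Slc2a1 (chromosome 4, 119108711 to 119137983) had 77.1, 69.8 and 85.0 CPM in the 3 hr LTP libraries and 55.9, 58.3 and 58.9 CPM in the 3 hr controls. Every LTP library lay above every control. The log2 fold change was 0.44 (SE 0.08, adjusted p = 0.0242), a ratio of 1.35, and the ratios by animal were 0.46, 0.26 and 0.53 on the log2 scale. Endothelial cells express much GLUT1. By edgeR, 0 of the 5 endothelial markers examined were called at this time and 1 had an unadjusted p under 0.05. Their median log2 fold change was 0.03, and their summed level was 59.0 to 65.0 CPM with LTP and 59.3 to 63.7 CPM without. Pecam1 had 21.2 ± 0.53 CPM with LTP and 18.8 ± 0.71 CPM without (mean ± SD, n = 3). Means of Ly6c1 and Tek were also higher with LTP, and those of Cldn5 and Slco1a4 were lower. Of the 6 astrocyte markers, likewise 0 were called and 1 had an unadjusted p under 0.05 (median -0.05). The part of these cells in the Slc2a1 difference was not tested. The Slc2a1 call was lost without 3 hr control replicate 1, without 3 hr control replicate 2 or without 3 hr LTP replicate 1 (adjusted p up to 0.124), while the fold change stayed between 0.35 and 0.51 across the 16 alternatives.

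Eno1 (chromosome 4, 150236721 to 150248879) encodes alpha-enolase, the isoform of glia and most other tissues. It had 418, 418 and 505 CPM with LTP and 581, 586 and 549 CPM without. The groups did not overlap, and 3 hr LTP replicate 3 was nearest to the controls. The log2 fold change was -0.34 (SE 0.08, adjusted p = 0.0617). Without any single 3 hr control, or without 3 hr LTP replicate 1, Eno1 was not called (adjusted p up to 0.256), while the fold change stayed between -0.45 and -0.29 across the 16 alternatives. Eno2, the neuronal isoform, differed by -0.07 (SE 0.06, adjusted p = 0.55). As a share of summed enolase RPKM, Eno1 made up 38.0% ± 1.7 (SD, n = 3) in 3 hr LTP and 42.5% ± 1.1 (SD, n = 3) in 3 hr control slices, without overlap (36.6% to 39.9% against 41.3% to 43.3%). At 1 hr the share was 33.8% ± 1.3 (SD, n = 3) with LTP and 35.7% in the mean of 2 controls.

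A further 3 genes passed the adjusted p but not the fold minimum at 3 hr, all of them lower in LTP slices. Pgam1, the phosphoglycerate mutase, had 105, 110 and 105 CPM with LTP and 131, 124 and 124 CPM without (log2 fold change -0.23, SE 0.06, adjusted p = 0.0618). Ldha, which encodes the lactate dehydrogenase subunit of glycolytic tissues, had 213, 217 and 223 CPM with LTP and 254, 264 and 248 CPM without (-0.22, SE 0.05, adjusted p = 0.0622). Tpi1, the triosephosphate isomerase, had 413, 444 and 413 CPM with LTP and 508, 506 and 480 CPM without (-0.22, SE 0.06, adjusted p = 0.0842). In each of these 3 genes the LTP libraries all lay below the controls. Ldhb, the other subunit, followed with -0.20 (SE 0.06, adjusted p = 0.112), so that the share of Ldha in summed lactate dehydrogenase RPKM was 33.6% ± 1.4 (SD, n = 3) with LTP and 33.9% ± 0.13 (SD, n = 3) without.

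Across the 11 genes from aldolase to lactate, every log2 fold change at 3 hr was again below 0, with a median of -0.17. Of these 11, 7 had an unadjusted p under 0.05 and 1, Eno1, was called. Over the whole group of 36 at this unadjusted p, 11 genes (30.6%) were lower in LTP slices and 2 (5.56%) were higher, against 8.25% and 12% of all genes. By animal, 11, 11 and 10 of the 11 ratios lay below 0, with medians of -0.24, -0.17 and -0.15. The exception was Gapdh in animal 3. The median lay between -0.21 and -0.12 in the 16 alternatives, and the smallest count below 0 was 10 of 11. Without 3 hr LTP replicate 3, Gapdh (log2 fold change -0.38, adjusted p = 0.0393) and Egln1 (-0.29, adjusted p = 0.0769) were called lower as well.

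**Figure D2:**
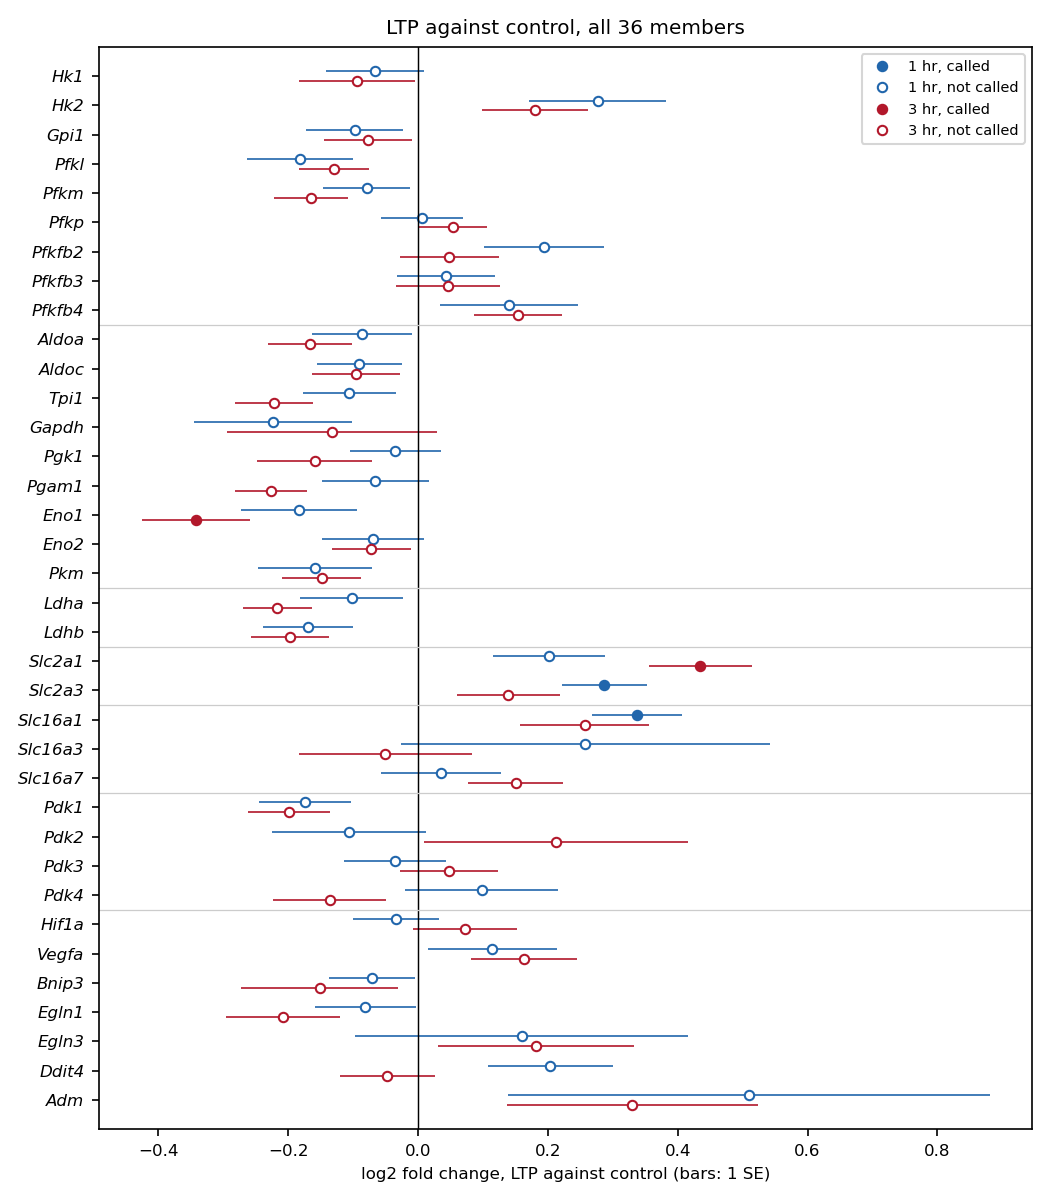
Log2 fold change, LTP against control (x axis), of the 36 genes (y axis, grouped by role with grey lines) at 1 hr in blue and at 3 hr in red. Filled points were called, open points were not, and bars give 1 SE. Slc16a1 and Slc2a3 are filled at 1 hr and Slc2a1 and Eno1 at 3 hr, and all 9 lower-glycolysis genes and both lactate dehydrogenase genes lie left of 0 at both times.

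**Figure D3:**
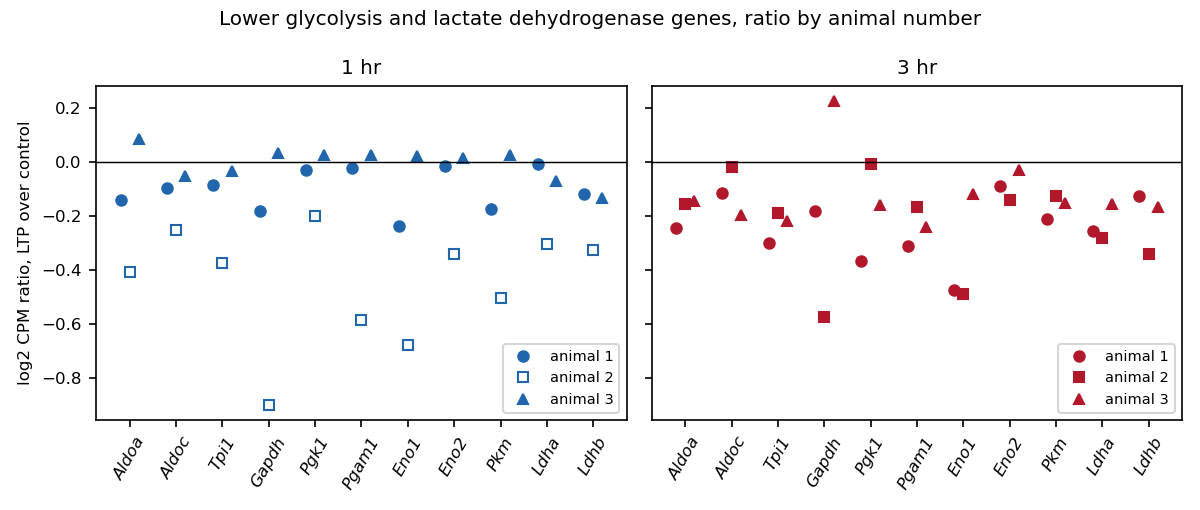
Log2 ratio of CPM, LTP over control slices of the same animal number (y axis), for the 11 genes from aldolase to lactate dehydrogenase (x axis) at 1 hr (left) and 3 hr (right). Symbols mark the 3 animals of a time point, and open squares use the control library that was set aside. At 3 hr Gapdh in animal 3 is the only ratio above 0, at 0.23.

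Steps before aldolase were mixed at 3 hr. The phosphofructokinase genes Pfkl and Pfkm differed by -0.13 and -0.16, Pfkp by 0.05, and none was called. Pfkp made up 16.0% ± 0.42 (SD, n = 3) of summed phosphofructokinase RPKM in LTP slices and 14.1% ± 0.065 (SD, n = 3) in controls, without overlap. Hk2 had 31.1, 28.7 and 31.1 CPM with LTP and 26.4, 29.4 and 25.2 CPM without, which overlapped (log2 fold change 0.18, SE 0.08, adjusted p = 0.262).

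Lactate transporters at 3 hr gave no call. Slc16a1 had 119, 146 and 115 CPM with LTP and 109, 115 and 97.2 CPM without (log2 fold change 0.26, SE 0.10, adjusted p = 0.192). Its ratio was above 0 in each of the 3 animals at both times. Slc16a7, which encodes the neuronal transporter MCT2, differed by 0.15 (SE 0.07, adjusted p = 0.296) and Slc16a3 by -0.05 (SE 0.13, adjusted p = 0.874). Among kinases and hypoxia genes, Pdk1 had -0.20 (SE 0.06, adjusted p = 0.125), Vegfa, the vascular growth factor, 0.16 (SE 0.08, adjusted p = 0.305) and Hif1a 0.07 (SE 0.08, adjusted p = 0.657). The other kinases, Pdk2 and Pdk3, were called in none of the comparisons. Pdk2 had 21.1, 18.7 and 34.9 CPM with LTP and 20.3, 21.8 and 22.7 CPM without at 3 hr (0.21, SE 0.20, adjusted p = 0.6002). The value of 3 hr LTP replicate 3 stood above all others. Pdk3 lay between 42.8 and 52.1 CPM in all 11 fitted libraries.

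Whether the LTP effect itself differed between the time points was tested as an interaction over 11 libraries. None of the 36 genes was called by edgeR, 0 had an unadjusted p under 0.05, and DESeq2 and limma-voom called 0 of them. Of all 18584 genes tested, 0.0592% were called and 1225 had an unadjusted p under 0.05. Among the 36 genes, the lowest p-values belonged to Ddit4, with a difference of -0.24 (95% interval -0.51 to 0.02, adjusted p = 0.798), and Slc2a1, with 0.24 (95% interval -0.02 to 0.50, adjusted p = 0.803). For Slc16a1 the difference was -0.07 (95% interval -0.34 to 0.20). A call at only one of the times is therefore not shown to be particular to that time.

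The next comparison asked how control slices differed between 3 hr and 1 hr, without LTP induction. Here 15 of the 36 genes were called, 13 higher and 2 lower at 3 hr. Of all 18584 genes tested, 16.1% were called higher and 16.8% lower, so that the share of higher calls among the 36 genes was 36.1% and that of lower calls 5.56%. The median log2 fold change was 0.08 over the 36 genes and -0.02 over all genes. Time and animal cannot be told apart, since different animals were taken to have supplied each time point.

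Hk2 (chromosome 6, 82725025 to 82774454) rose most. It had 11.26 and 11.01 CPM in the 1 hr controls and 26.4, 29.4 and 25.2 CPM in the 3 hr controls, with 15.5 CPM in the library set aside. The log2 fold change was 1.25 (SE 0.09, adjusted p = 7.97e-06). Hk1, the constitutive brain hexokinase, differed by -0.09 (SE 0.10, adjusted p = 0.54), so that the share of Hk2 in summed hexokinase RPKM was 3.62% in the mean of the 1 hr controls and 8.66% ± 0.67 (SD, n = 3) at 3 hr. Phosphofructokinase-2 genes, whose products set the level of the glycolytic activator fructose 2,6-bisphosphate, also rose. Pfkfb3 changed by 0.44 (SE 0.08), Pfkfb4 by 0.38 (SE 0.09) and Pfkfb2 by 0.32 (SE 0.09), with adjusted p of 0.00181, 0.00549 and 0.0153.

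In lower glycolysis, 3 of 9 genes rose. Pgam1 went from 78.1 and 78.9 CPM to 131, 124 and 124 CPM (log2 fold change 0.65, SE 0.08, adjusted p = 9.06e-05). Eno1 changed by 0.50 (SE 0.11, adjusted p = 0.0034) and Pgk1, the phosphoglycerate kinase, by 0.36 (SE 0.09, adjusted p = 0.00921). The other 6 genes, Aldoa, Aldoc, Tpi1, Gapdh, Eno2 and Pkm, differed by -0.08 to 0.09.

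Among transporters, Slc2a3 rose by 0.46 (SE 0.08, adjusted p = 0.00089), Slc16a1 by 0.30 (SE 0.09, adjusted p = 0.0262) and Slc16a3 by 0.98 (SE 0.21, adjusted p = 0.00326). Slc16a3 stayed low, with 0.956 and 1.37 CPM at 1 hr and 2.401, 2.33 and 2.32 CPM at 3 hr. Slc16a7 differed by -0.25 (SE 0.09, adjusted p = 0.0485), under the fold minimum. Slc2a1 differed by 0.13 (SE 0.09, adjusted p = 0.321).

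Pdk4, a kinase induced by fasting and glucocorticoids, was the kinase called, with 25.4 and 25.4 CPM at 1 hr and 36.7, 39.7 and 35.4 CPM at 3 hr (log2 fold change 0.52, SE 0.12, adjusted p = 0.00642). Its share of summed kinase RPKM was 17.0% in the mean of the 1 hr controls and 24.6% ± 0.94 (SD, n = 3) at 3 hr. Of the hypoxia genes, Ddit4 rose from 21.7 and 21.1 CPM to 32.4, 34.7 and 33.9 CPM (0.62, SE 0.09, adjusted p = 0.000371), and Egln1 rose by 0.44 (SE 0.09, adjusted p = 0.00361). Bnip3, a mitochondrial mitophagy receptor and known HIF target, fell by 0.41 on the log2 scale (SE 0.11, adjusted p = 0.0142). Hif1a fell by 0.28 (SE 0.08, adjusted p = 0.0173), close to the fold minimum, and lost its call in 15 of 21 alternatives. The control library set aside had 98.5 CPM of Bnip3, within the range of the 3 hr controls. It held 99.5 CPM of Pgam1 and 483 CPM of Eno1, between the other controls of both times. With all 12 libraries 14 of the 15 genes were called, all but Hif1a, and the log2 fold change of Bnip3 was -0.30. Vegfa differed by 0.08 (SE 0.11, adjusted p = 0.587) and Egln3 by 0.29 (SE 0.19, adjusted p = 0.278).

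In LTP slices, 12 of the 36 genes were called between 3 hr and 1 hr, 11 higher and 1 lower. Of all genes tested, 18.6% were called higher and 17.3% lower. The medians were 0.14 over the 36 genes and near 0 over all genes. This contrast shares no library with that of the control slices, but LTP and control slices of a time point came from the same animals, so that a difference between the animals of the time points would enter both. Called higher in both were 10 genes, namely Hk2, Pfkfb3, Pfkfb4, Pgam1, Eno1, Slc2a3, Slc16a3, Pdk4, Egln1 and Ddit4, and Bnip3 was called lower in both. Pfkfb2, Pgk1, Slc16a1 and Hif1a were called in control slices alone and Slc2a1 in LTP slices alone, but no interaction was called for any of them.

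Hk2 had 13.0, 14.0 and 13.2 CPM at 1 hr and 31.1, 28.7 and 31.1 CPM at 3 hr in LTP slices (log2 fold change 1.16, SE 0.08, adjusted p = 2.44e-06). The 3 hr values were all above the 1 hr values, as in the controls. Pgam1 changed by 0.50 (SE 0.07, adjusted p = 0.000156) and Eno1 by 0.35 (SE 0.09, adjusted p = 0.0104). Slc2a1 went from 62.3, 60.3 and 54.8 CPM to 77.1, 69.8 and 85.0 CPM (0.37, SE 0.08, adjusted p = 0.00353). Bnip3 had 108, 113 and 112 CPM at 1 hr and 78.8, 94.6 and 68.2 CPM at 3 hr (-0.48, SE 0.10, adjusted p = 0.0025). Without 3 hr LTP replicate 3, Eno1 (0.26), Egln1 (0.25) and Pdk4 (0.22) were not called in this contrast, nor were Pdk4 without 1 hr LTP replicate 3 (0.23) and Slc2a3 without 3 hr LTP replicate 2 (0.23). Calls were also gained in these fits. Pgk1 (0.32 and 0.29) and Slc16a1 (0.26 and 0.30) were called higher without 1 hr LTP replicate 3 and without 3 hr LTP replicate 3, and without 3 hr LTP replicate 2 Gapdh (0.32) and Pdk2 (0.46) were called higher and Pdk1 (-0.28) lower.

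**Figure D4:**
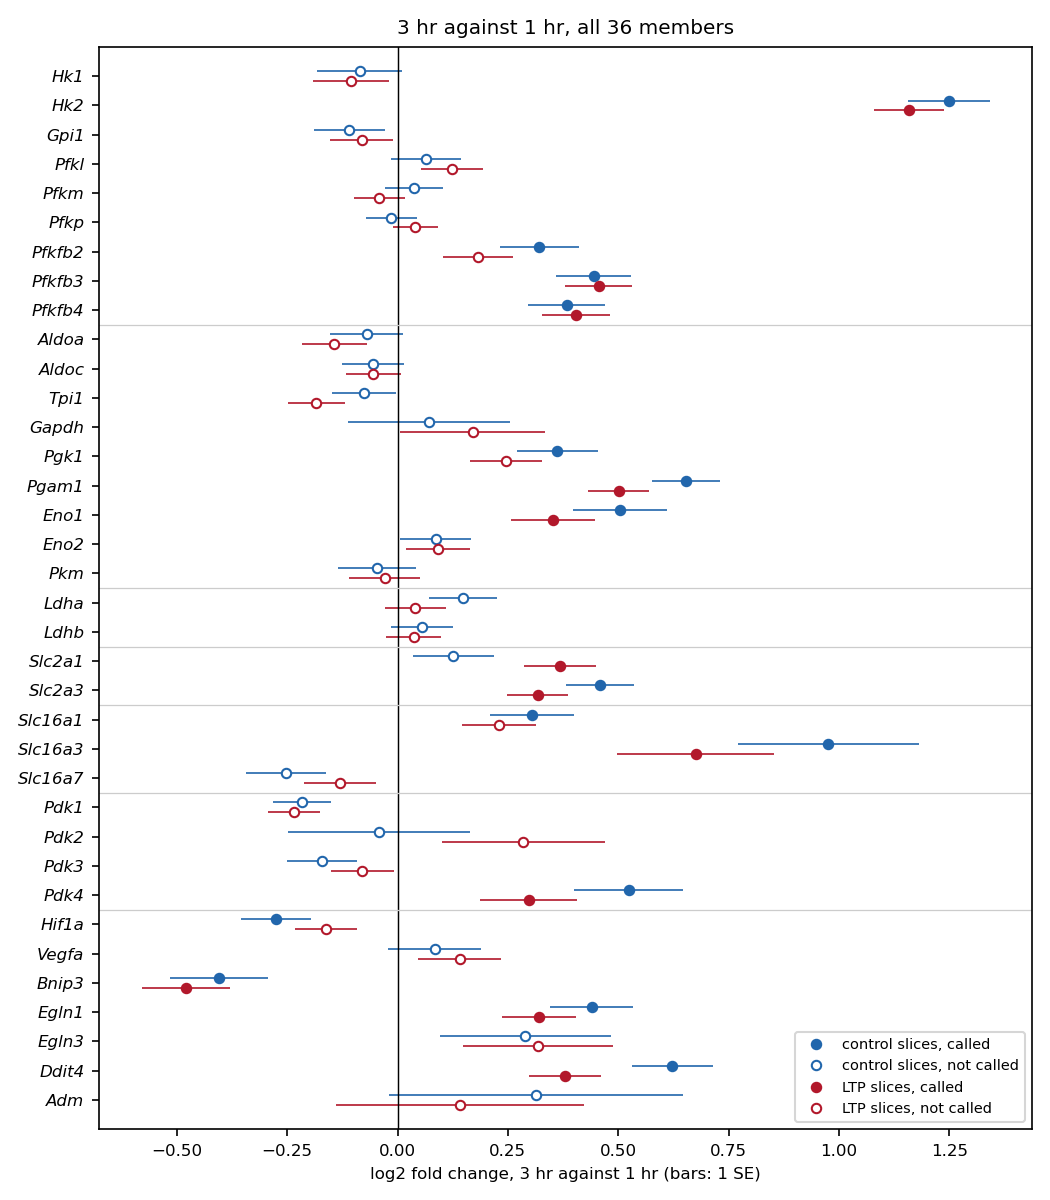
Log2 fold change, 3 hr against 1 hr (x axis), of the 36 genes (y axis, grouped by role with grey lines) in control slices in blue and LTP slices in red. Filled points were called, open points were not, and bars give 1 SE. Hk2 lies farthest right in both, at 1.25 and 1.16, and Bnip3 farthest left, at -0.41 and -0.48.

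**Figure D5:**
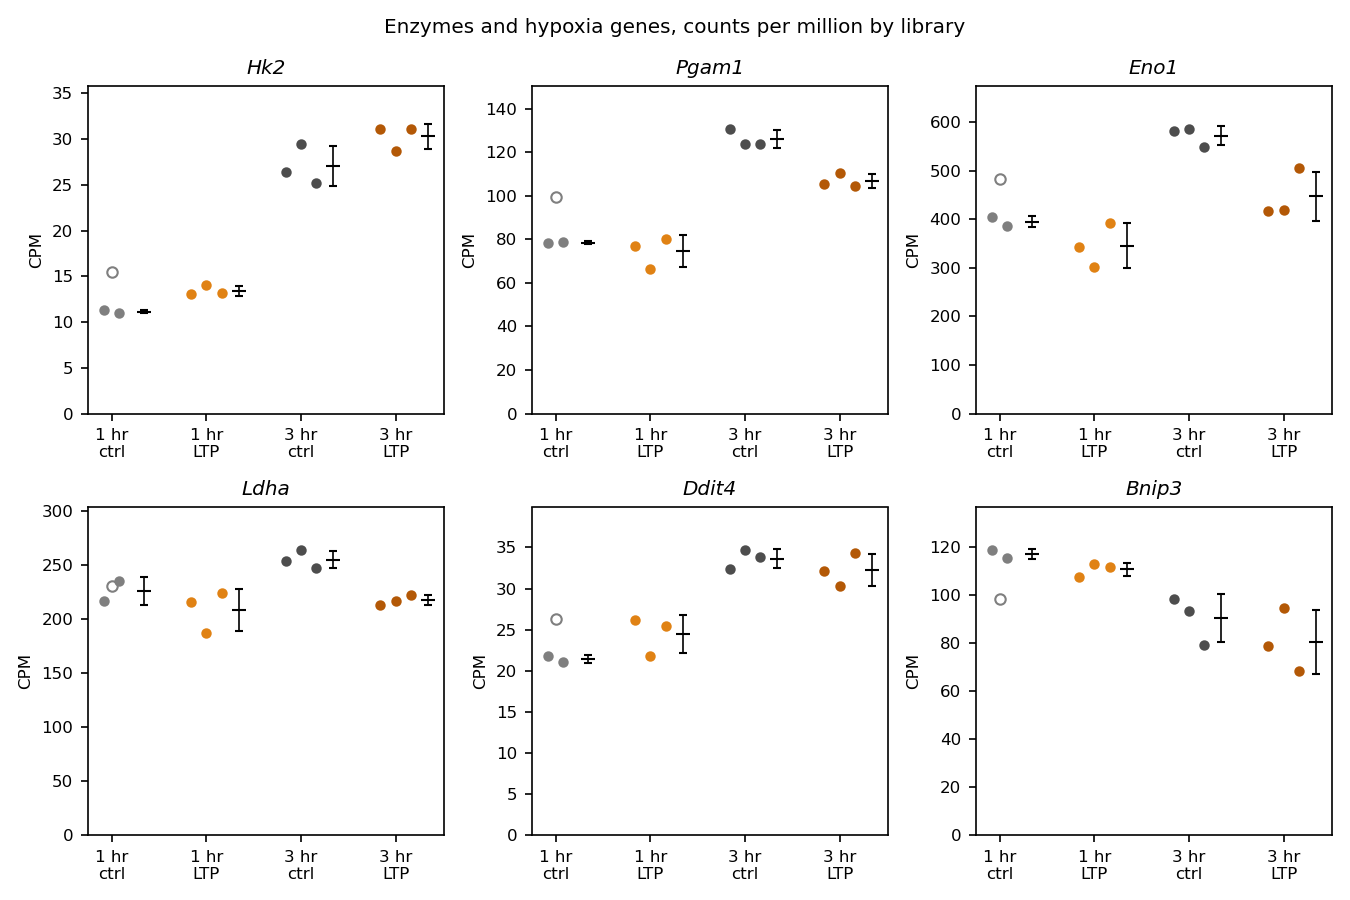
CPM (y axis, from 0) of 6 genes in each library of the 4 groups (x axis). Filled points are fitted libraries, the open point is 1 hr control replicate 2, which was set aside, and bars give mean and SD of the fitted libraries. Hk2 separates by time, at 11.01 to 14.0 CPM in the fitted 1 hr libraries and 25.2 to 31.1 CPM in the 3 hr libraries, and Pgam1, Eno1 and Ldha in 3 hr LTP slices lie below the 3 hr controls.

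Calls between the times were affected by a correction for GC content and exonic length. Over all 18584 genes tested, 6102 were called in control and 6676 in LTP slices without this correction, and 4550 and 4943 with it. With it, 14 of the 36 genes were called in control slices, 11 higher and 3 lower, of which 12 were shared. Pfkfb4 (log2 fold change 0.21) and Egln1 (0.22) fell under the fold minimum, Hif1a (-0.08) was not called, and Aldoa (-0.33) and Gpi1 (-0.27) were called lower. Gpi1 encodes glucose phosphate isomerase. In LTP slices 10 were called, 7 higher and 3 lower, of which 6 were shared. There Pfkfb4, Eno1, Slc2a1, Slc16a3, Egln1 and Ddit4 lost the call, Pgk1 and Slc16a1 gained it as higher, and Hk1 and Aldoa gained it as lower. Hk2, Pfkfb3, Pgam1, Slc2a3, Pdk4 and Bnip3 were called in both groups with and without this correction.

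Marker genes of other cell types also differed between the times. Of 5 microglial markers 4 fell in control and 4 in LTP slices, and their summed level was 191 to 197 CPM in 1 hr controls and 125 to 142 CPM in 3 hr controls. Endothelial markers summed to 83.5 to 84.3 CPM and 59.3 to 63.7 CPM in the same groups, with 3 of 5 called lower. In LTP slices 2 endothelial markers were called lower and 1 higher. Of 5 mural markers, 3 were called lower with time in each, 1 was called higher in LTP slices, and 1 was called lower in LTP than in control slices at 1 hr. Of 5 oligodendrocyte markers, 2 were called higher in each. Neuronal markers summed to 6921 to 7286 CPM in 1 hr controls and 6259 to 6334 CPM in 3 hr controls, with 2 of 6 called lower. Their median log2 fold change was nevertheless 0.08. Mean levels of Snap25 and Syt1 were lower at 3 hr, and those of Rbfox3, Slc17a7, Camk2a and Gad1 were higher. Astrocyte markers summed to 4805 to 5013 CPM and 4837 to 5017 CPM in the same groups, with 1 of 6 called lower. No marker of these lists was at 0 in any group. Their part in the changes between the times was not tested.

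Other genes of the same pathways, 83 in 3 lists, were called for LTP at shares near those of all genes. At 1 hr, 1 of 79 genes tested (1.27%) was called higher, against 0.778% of all genes. Bhlhe40, a transcriptional repressor induced by hypoxia and by activity, rose by 0.38 (SE 0.07, adjusted p = 0.0114). At 3 hr, 3 of 79 (3.8%) rose and 2 (2.53%) fell, against 5.07% and 1.53% of all genes. Ppp1r3g, a subunit that targets phosphatase 1 to glycogen, had the largest change, from 4.89 ± 0.56 to 12.1 ± 1.0 CPM (mean ± SD, n = 3, log2 fold change 1.32, adjusted p = 0.00102). Bhlhe40 rose by 0.44 and Arnt, which encodes the constitutive HIF partner, by 0.43 (adjusted p = 0.0273 and 0.0683). Angptl4, a HIF and PPAR target that inhibits lipoprotein lipase, fell from 41.3 ± 7.9 to 19.1 ± 2.4 CPM (mean ± SD, n = 3, log2 fold change -1.10, adjusted p = 0.00766), and Ankrd37, another HIF target, changed by -0.51 (adjusted p = 0.0755).

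Between the times, 16 of the 80 other genes tested rose and 7 fell in control slices, and 12 rose and 4 fell in LTP slices. As shares of the genes tested these are 20% and 8.75% in control and 15% and 5% in LTP slices, against 16.1% and 16.8% of all genes in control and 18.6% and 17.3% in LTP slices. The list of oxygen-sensing and hypoxia-response genes, 35 of the 80, held 12 of those 16 and 10 of those 12, or 34.3% and 28.6% of its genes. Angptl4 changed most in both, by 1.96 (SE 0.22) in control and 1.33 (SE 0.20) in LTP slices. Slc2a8, an intracellular glucose transporter, changed by 0.90 and 0.70. Of other glycolysis and glycogen genes, 2 of 26 rose and 3 fell in control slices, and 2 of 26 fell in LTP slices.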

How the data were processed

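Total RNA of 12 hippocampal slice libraries was sequenced as paired-end reads after ribosomal RNA depletion. According to the study's methods the authors aligned reads with STAR to GRCm38/mm10 and counted them per gene with Bioconductor packages. The deposited tables, 1 per time point, hold raw counts that were not normalized. The submitters' processing notes name mm10 and DESeq2. Of 41091 gene IDs, 40217 matched GENCODE M21, which gave symbols, positions, GC content and exonic lengths, and 874 did not. Whether counting used strand is not given in the sources used here.

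Low counts were removed with filterByExpr, libraries were scaled by TMM, and counts were tested by the quasi-likelihood method of edgeR 4.0.16 (R 4.3.3), with Benjamini-Hochberg adjustment over all genes tested. Calls took the thresholds of the study, an adjusted p under 0.1 together with a fold difference above 1.2. The 1 hr comparison used 5 libraries, without 1 hr control replicate 2, and the 3 hr comparison used 6. Comparisons between times and the interaction came from a single model fitted to 11 libraries of the 4 groups, where no fold minimum applied to the interaction. CPM and RPKM were TMM-scaled, and ratios by animal used a pseudocount of 0.1 CPM. Intervals are 95% intervals from the total degrees of freedom of the test, which add prior to residual ones.

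The members and gene lists were chosen with earlier results of these data known. All 36 members were tested. Of 83 other pathway genes, called ones could be named, at most the 6 with the largest change per comparison, and only some of these are reported here. Animal numbers pair libraries within a time point per the labels. Their deviations from the group means correlated, across genes, by -0.01, -0.24 and 0.08 in animals 1, 2 and 3 at 1 hr and by 0.07, 0.005 and 0.29 at 3 hr.

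Counting error was small against the spread between replicates, whose chi-square per degree of freedom was 9.49 to 85.6 over genes whose pair held 20 counts or more. The largest value belonged to 3 hr LTP replicates 2 and 3. It exceeded the 47.0 and 63.3 of the pairs with 1 hr control replicate 2, which was set aside. Scripts were tested on simulated data. The alternatives were DESeq2 1.42.0, limma-voom (limma 3.58.1), other scalings and filters, offsets for GC content and exonic length, an animal block, all libraries, a model of the 4 groups and leaving out each library.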

Additional observations from a re-analysis of the deposited data

How the results depend on the processing

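Over all alternatives, 3492 values of the 36 genes were recomputed. The call and direction were unchanged in 3417 of them, a call was lost in 51 and gained in 24, and no called value reversed. The sign turned in 174 values that were called neither way. Member calls at 1 hr numbered 2 in the reported fit. They numbered 1 with all 6 libraries, 0 with all 6 libraries and the replicate block, and 0 in the model of the 4 groups, and from 0 to 3 when each library was left out. At 3 hr they numbered 2, and from 0 to 4 when each library was left out. The 1 hr calls went to 0 without control replicate 1, control replicate 3 or LTP replicate 1, and the 3 hr calls without control replicate 1, control replicate 2 or LTP replicate 1. Where an arm was left with 1 library, it is assumed to vary like the others. Without 3 hr control replicate 3, 1 call was left. Other tools, scalings, filters and offsets kept the same 2 calls at 1 hr and the same 2 at 3 hr. Between the times the calls numbered 13 to 15 in control slices and 10 to 14 in LTP slices, and the interaction gave 0 throughout. The replicate block kept the same 2 calls at 1 hr, 2 at 3 hr, 12 in LTP slices and 14 in control slices, where Slc16a1 fell under the fold minimum (log2 fold change 0.25), and changed no other call of these fits. Between the times a shared number is not known to mark a shared animal. Of all genes, 140 were called at 1 hr, against 69 to 347 in the alternatives (69 without 1 hr control replicate 1, 344 without 1 hr LTP replicate 3, 347 with no filter). The interaction called 11, against 1 to 102. At 3 hr 1155 were called, and the number ranged from 228 to 2170 between fits that left out 3 hr control replicate 2 and 3 hr LTP replicate 2. Between the times 6102 of all genes were called in control and 6676 in LTP slices. Alternatives that kept 2 or 3 libraries in each group called 4550 to 6653 and 4943 to 7500. Precision is limited by the 2 or 3 libraries a group. The floor of 3 counts covers counting error only. Causes of the lost calls were not tested.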
